A study of Mus musculus with 8 samples.

Results

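The 46 genes described here drive or mark the cell division cycle, and they were chosen by name in 3 classes: 13 genes of the G1 phase and its brakes, 11 genes of DNA replication in S phase, and 22 genes of mitosis. The deposited table lists 13677 genes, and 43 of the 46 have a row in it: 11 of the G1 genes, all 11 of the S genes and 21 of the mitotic genes. Ccne1, Cdkn2b and Bub1 were not analysed here. All 43 reached the minimum level for testing, but 2 mitotic genes, Kif20a and Ccnb1, did so only through their values in the libraries labelled KO, so their differences from KO support nothing by themselves.

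Poly(A) RNA of mouse ventricular heart was sequenced in 8 libraries, labelled C (n = 3), KO (n = 2, numbered 1 and 3) and DKO (n = 3). The series sets Vhl-deficient ventricles against wild-type ones in a model with Wt1-Cre, a Cre recombinase under the promoter of Wt1, which is active in the epicardium and in cells derived from it. Vhl encodes the part of a ubiquitin ligase that recognises hypoxia-inducible factors and so sends them to degradation. What the 3 abbreviations stand for, which second change DKO carries, and the strain, age and sex are absent from the labels, which record no treatment in any group. Vhl itself stood at 7.91 ± 0.925 in C, 8.64 ± 0.45 in KO and 10.3 ± 1.43 in DKO, with limma adjusted p-values of 0.708 for KO and 0.589 for DKO against C. Wt1-Cre acts in some cell types of the ventricle only, so the level in whole tissue says little about the labels, and each direction below is one between libraries that carry these labels. Separate animals are not named either. A p-value here only sets a difference of group means against the spread among these samples, and that spread may be technical.

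The cell cycle is run by cyclin-dependent kinases, each switched on by a cyclin. In G1, D-type cyclins with Cdk4 or Cdk6 phosphorylate the retinoblastoma protein, which frees E2F transcription factors to induce the genes of DNA replication, while inhibitors of the Cip/Kip and INK4 families hold these kinases back. Later in the cycle, cyclin A and cyclin B with Cdk1 drive entry into mitosis, and the anaphase-promoting complex then ends it by targeting cyclins for degradation. Most cardiomyocytes of the adult mouse have left the cycle, so cycling cells of a ventricle are mainly among fibroblasts, endothelial cells and leukocytes.

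All levels below are the deposited signal, which is the number of reads in proportion to a library's scaled total. The libraries held 15028176 to 21202385 reads, and the 3 reads that a count of 0 still allows equal a signal between 0.104 and 0.283 (counting error only). The authors' scaling factors were 1.36 and 1.37 in KO, against 0.925 to 0.964 in C and 0.705 to 1.06 in DKO. Library DKO 2 stood apart, with 41.6% of its reads from the mitochondrial genome, against 16.2% to 29.9% in the other 7 libraries. Ventricular muscle markers matched the labelled tissue, with Myl2, the regulatory myosin light chain of ventricular muscle, at 8910 ± 580 in C, 4120 ± 562 in KO and 6860 ± 1580 in DKO.

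Mitotic genes formed the class with the most members above C in KO. Of its 21 measured members 7 rose and none fell in KO against C, by limma with Benjamini-Hochberg adjusted p below 0.05, where 6.9% of all 13544 tested genes rose and 7.01% fell. In 18 of the 21 both KO libraries lay above all 6 other libraries, a pattern held by 17% of all tested genes. Without Kif20a and Ccnb1 19 mitotic members remain, of which 6 rose and 16 (84.2%) had both KO libraries above all others. Of the 13327 genes that reach the minimum without KO, 6.48% rose and 16.3% had that pattern. The members past the threshold were Mki67, Top2a, Ccna2, Cdk1, Kif20a, Prc1 and Ube2c. The median change of the class was 0.6 on the log2 scale, beside 0.00822 over all tested genes. It was 0.918 with edgeR and 0.915 with DESeq2. At a mean signal of at least 5 Mki67 and Cenpf alone were left, with a median of -0.038, and Mki67 reached that mean only through KO. Fold changes are on the scale of log2(signal + 1), which understates the change of low genes, and these are low: in C the level per kilobase of transcript ran from 0.143 for Cenpe to 1.32 for Cdc20.

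Ube2c, the ubiquitin-conjugating enzyme that works with the anaphase-promoting complex, lies on chromosome 2 at 164769898 to 164778822 (GRCm38, plus strand). Its signal was 1.68, 1.48 and 1.08 in the C libraries, 5.1 and 4.49 in KO, and 1.03, 2.41 and 1.12 in DKO. Both KO libraries were higher than every other library, and C and DKO overlapped. The log2 change in KO against C was 1.27 ± 0.26 (SE), with a limma adjusted p of 0.00824. Prc1, which bundles the microtubules of the spindle midzone, lies on chromosome 7 at 80294450 to 80316259 (plus strand). Its signal was 1.32, 1.12 and 2.01 in C, 4.11 and 5.11 in KO, and 0.942, 1.18 and 1.58 in DKO. Again the 2 KO libraries stood above the other 6, and the change was 1.19 ± 0.24 on the log2 scale, with a limma adjusted p of 0.00747.

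Top2a, the topoisomerase that untangles sister chromatids, lies on chromosome 11 at 98992943 to 99024189 (minus strand). Its signal was 2.72, 2.26 and 1.08 in C, 5.18 and 6.26 in KO, and 1.72, 1.93 and 1.35 in DKO. The C libraries spread more for this gene than for Ube2c, yet the lowest KO library remained above the highest C library, with a change of 1.19 ± 0.26 and a limma adjusted p of 0.0114. Cdk1, the kinase that drives entry into mitosis, had signals of 1.13, 1.84 and 0.587 in C, 3.64 and 3.28 in KO, and 0.942, 1.37 and 1.41 in DKO. Every C and DKO library lay below both KO values, and the rise of Cdk1 was 1.07 ± 0.26 in log2 units (limma adjusted p = 0.0195). Ccna2, the A-type cyclin that partners both Cdk2 and Cdk1, had signals of 2.17, 2.92 and 2.19 in C, 5.53 and 4.52 in KO, and 1.17, 1.93 and 2.22 in DKO. Its groups C and KO did not overlap, and it rose by 0.82 ± 0.23 (limma adjusted p = 0.035).

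Mki67, which coats mitotic chromosomes and is widely used to stain cycling cells, had signals of 4.87, 4.37 and 4.42 in C, 10.8 and 8.89 in KO, and 2.55, 4.39 and 5.39 in DKO. Its C libraries lay close together while DKO spread on both sides of them, and the change in KO against C was 0.96 ± 0.24 (limma adjusted p = 0.0201). Kif20a, a kinesin of cytokinesis, had signals of 0.704, 0.693 and 1.33 in C, 2.46 and 2.41 in KO, and 0.666, 0.613 and 0.835 in DKO. One library outside KO reached a signal of 1, so Kif20a entered the test through KO, and its fitted change of 0.86 ± 0.23 (limma adjusted p = 0.0297) is a description.

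These 7 calls rested on both KO libraries. Without KO 3 none of the 7 passed, with limma adjusted p-values from 0.071 to 0.179, and without KO 1 Prc1 alone passed while the other 6 ran from 0.0564 to 0.227. Leaving out C 1 ended 4 of the 7 calls and leaving out C 2 or C 3 ended 3 each, with adjusted p-values of 0.0528 to 0.111 among those lost. Top2a, Prc1 and Ube2c passed without each C library in turn. Without DKO 2, the library with the high mitochondrial share, all 7 still passed. With the trends of gene length and GC content removed, Ccna2 (0.0529) and Kif20a (0.0526) did not pass.

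**Figure D1:**
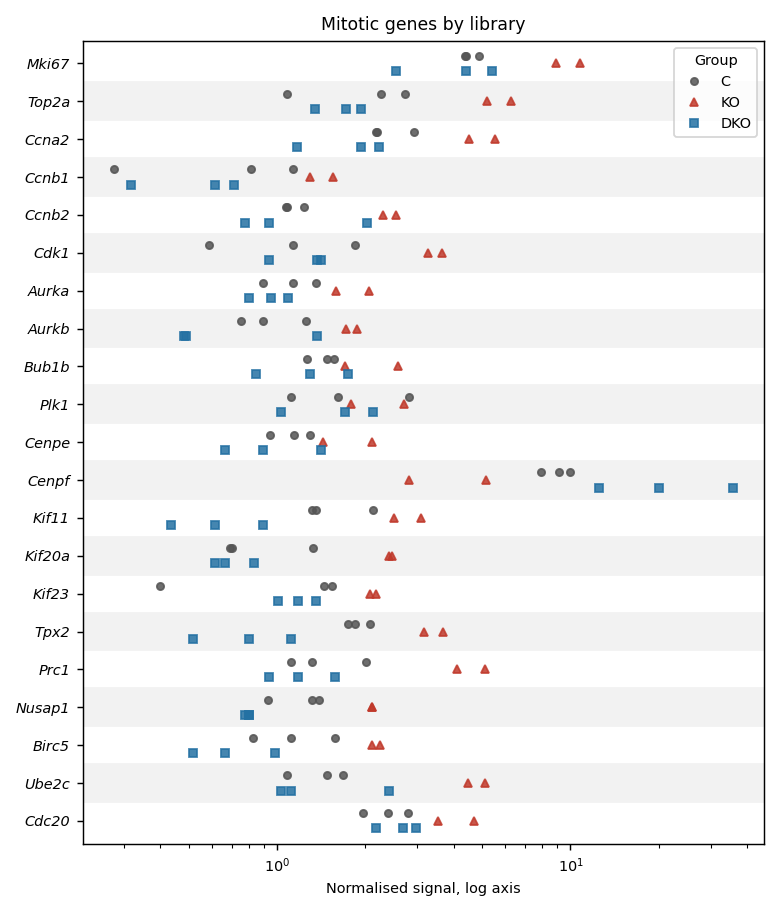
Signal of the 21 measured mitotic genes in each library, on a log axis in units of the deposited signal, with C as grey circles, KO as red triangles and DKO as blue squares. In 18 genes both KO points lie above the other 6, while for Cenpf they lie below all of them.

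Among the other mitotic members, Tpx2, which targets Aurora kinase A to the spindle, had a mean of 1.88 ± 0.167 in C and 3.43 ± 0.37 in KO, a change of 0.62 ± 0.22 (limma adjusted p = 0.0848). Cdc20, an activator of the anaphase-promoting complex, stood at 2.37 ± 0.414 and 4.13 ± 0.814, with an adjusted p of 0.0797. The B-type cyclins that activate Cdk1 had no overlap between C and KO either: Ccnb1 stood at 0.741 ± 0.432 in C and 1.43 ± 0.18 in KO, and Ccnb2 at 1.13 ± 0.0921 and 2.43 ± 0.173. These 4 genes lay higher in KO without passing the test, and Ccnb1 is among the pair that was tested only through KO. The Aurora kinases Aurka and Aurkb, the spindle kinesins Kif11 and Kif23, the spindle checkpoint kinase Bub1b, the centromere kinesin Cenpe, the spindle protein Nusap1 and the chromosomal passenger Birc5 likewise had every KO value above every C value, with log2 changes of 0.36 for Bub1b to 0.6 for Kif23 and adjusted p-values of 0.143 to 0.357. Every KO value lay above every C value for 19 of the 21 mitotic members (90.5%), and for 27.5% of all tested genes. Plk1, the Polo-like kinase of mitotic entry, did not separate the groups, with 1.62, 1.12 and 2.81 in C and 2.7 and 1.79 in KO. In KO 1 alone 11 of the 21 genes reached their highest value, and in KO 3 another 8 did. These counts largely restate the 18 genes with both KO libraries on top, a pattern held by 17% of all tested genes. The highest library was not counted over all genes.

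Cenpf, a large protein of the outer kinetochore, went the other way. It lies on chromosome 1 at 189640606 to 189688086 (minus strand), and its signal was 9.95, 7.93 and 9.11 in C, 2.81 and 5.15 in KO, and 35.9, 20.1 and 12.5 in DKO. These 3 groups did not overlap, with KO lowest and DKO highest, and the DKO libraries spread widely. The change in KO against C was -1.04 ± 0.34 and missed the threshold (limma adjusted p = 0.0622), although DESeq2 gave 0.0178. Cenpf also weighed heavily on the sum of the class. With it, the summed signal of the 21 genes was 39.4 to 41.7 in C, 69.8 and 70.8 in KO and 40.5 to 57 in DKO. Without Cenpf, which was set aside after its values were seen, the sum was 31.5 to 32.1 in C, 64.7 and 67.9 in KO and 21.1 to 30.3 in DKO. With Cenpf removed the DKO sums lay below C rather than partly above it, and the KO sums stayed above both other groups either way.

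Promoters of the mitotic members shared sequence features. Many mitotic genes carry a CHR element (cell cycle genes homology region) near the start site, which the DREAM and MuvB complexes bind, often beside boxes for the factor NF-Y, while many replication genes carry E2F sites. RefSeq promoters on GRCm38.p6, from 250 bases before to 50 bases after a start site, were found for 38 of the 46 members, whether or not they are in the table. The promoters of 2 mitotic members and of the S member that rose are printed because these are the largest rises of their classes in KO against C, and that of Cenpf was added after its values were seen. Each runs from 250 bases before to 30 bases after the start, on the strand of the gene, and capitals mark CHR and NF-Y matches on either strand.
Ube2c, chr2:164769679-164769958, strand plus: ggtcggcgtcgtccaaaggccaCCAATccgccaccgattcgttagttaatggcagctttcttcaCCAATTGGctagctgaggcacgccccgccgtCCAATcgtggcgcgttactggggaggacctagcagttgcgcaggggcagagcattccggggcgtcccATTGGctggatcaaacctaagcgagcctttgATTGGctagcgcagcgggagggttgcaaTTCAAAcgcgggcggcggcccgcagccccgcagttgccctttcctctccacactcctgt
Top2a, chr11:99024160-99024439, strand minus: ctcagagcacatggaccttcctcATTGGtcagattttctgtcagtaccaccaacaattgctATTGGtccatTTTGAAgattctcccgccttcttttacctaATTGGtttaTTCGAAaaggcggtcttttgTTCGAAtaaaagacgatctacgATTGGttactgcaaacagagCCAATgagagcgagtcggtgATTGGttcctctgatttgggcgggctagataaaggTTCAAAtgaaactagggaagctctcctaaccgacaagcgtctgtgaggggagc
Mcm2, chr6:88898751-88899030, strand minus: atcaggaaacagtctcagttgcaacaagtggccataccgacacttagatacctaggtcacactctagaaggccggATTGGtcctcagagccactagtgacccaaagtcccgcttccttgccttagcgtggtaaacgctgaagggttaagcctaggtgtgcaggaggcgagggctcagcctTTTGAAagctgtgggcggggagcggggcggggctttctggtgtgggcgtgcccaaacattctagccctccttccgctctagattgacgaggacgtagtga
Cenpf, chr1:189688057-189688336, strand minus: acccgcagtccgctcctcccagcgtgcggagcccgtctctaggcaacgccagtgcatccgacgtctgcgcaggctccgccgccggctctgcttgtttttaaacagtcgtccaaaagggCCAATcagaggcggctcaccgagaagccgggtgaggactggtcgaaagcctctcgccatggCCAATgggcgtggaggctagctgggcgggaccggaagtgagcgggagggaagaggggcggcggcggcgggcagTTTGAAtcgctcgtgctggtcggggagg

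The Ube2c promoter holds 6 NF-Y boxes, of which 2 overlap, and 1 CHR match that begins 29 bases before the start. Top2a likewise has 6 NF-Y boxes, with 4 CHR matches, the last of which begins 23 bases before the start. Mcm2 has 1 match of each kind. Cenpf has 2 NF-Y boxes and 1 CHR match just past the start, so the element is present in the mitotic member with the opposite change as well.

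The CHR words searched were TTTGAA and TTCGAA. The NF-Y box was CCAAT, and the E2F words were TTTCCCGC and TTTCGCGC and, besides these, TTTGCCGC and TTTGGCGC, all on both strands and with overlaps counted. A CHR match was found for 14 of 18 mitotic members with a promoter (77.8%), 3 of 10 S members (30%) and 1 of 10 G1 members (10%), where 16.2% of 10417 table genes and 21.7% of all 27025 RefSeq genes with such a promoter had it. The NF-Y box was found for 88.9% of the mitotic, 90% of the S and 40% of the G1 members, against 42.6% of table genes and 41.1% of RefSeq genes. E2F words were found for 40% of the S members, 5.56% of the mitotic and 10% of the G1 members, against 4.52% of table genes and 2.6% of RefSeq genes. CHR matches were thus most frequent in the mitotic class and E2F words in the S class. A match in a window is a description of its letters, not a bound site.

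**Figure D2:**
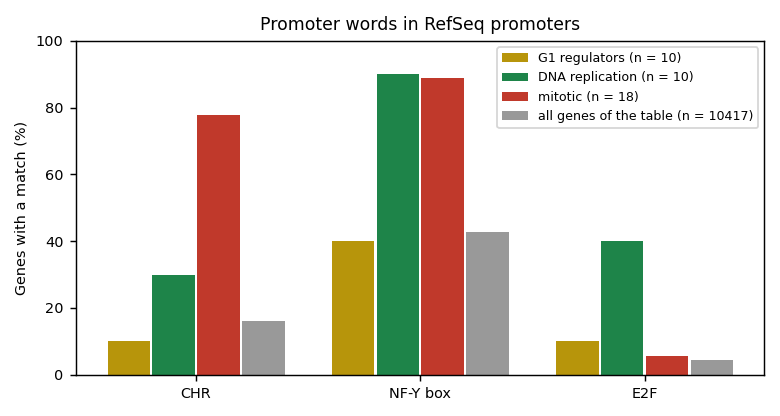
Percent of genes whose RefSeq promoter holds each motif, for the 3 classes and for all table genes. CHR matches stand at 77.8% in the mitotic class and at 16.2% among table genes, and E2F words at 40% in the S class.

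The G1 members that rose act at the entry point of the cycle. Of 11 measured members Ccnd1, Ccnd2 and E2f1 rose in KO against C and none fell (27.3% higher, where 6.9% of all tested genes were), and the median log2 change was 0.552. In 6 of the 11 (54.5%) both KO libraries lay above all other libraries, a pattern held by 17% of all tested genes. Their levels spanned a wide range: in C the level per kilobase ran from 0.247 for Ccne2 to 22.6 for Cdk4.

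Ccnd2, a D-type cyclin, lies on chromosome 6 at 127125162 to 127152193 (minus strand). Its signal was 39, 39.4 and 35.2 in C, 81.1 and 82.9 in KO, and 41.7, 33.5 and 37.1 in DKO. Both KO libraries were above the other 6, which overlapped, and the rise was 1.1 ± 0.15 in log2 units (limma adjusted p = 0.00133). Ccnd1, the D-type cyclin best known for its response to growth factors, had signals of 39.7, 36.3 and 42.7 in C, 61.4 and 61.8 in KO, and 46.6, 48.3 and 41.4 in DKO. Its DKO libraries overlapped the upper C values and lay under KO, and it rose by 0.63 ± 0.15 in KO against C (limma adjusted p = 0.0172). Ccnd3, the third cyclin of this type, stood at 66.7 ± 2.01 in C and 82.1 ± 5.59 in KO, a log2 change of 0.3 ± 0.15 that did not pass (adjusted p = 0.219). The kinase partners of these cyclins overlapped between C and KO: Cdk4 stood at 46.4 ± 3.22 in C and 45.7 ± 9.99 in KO, and Cdk6 at 10.3 ± 2.19 and 11.9 ± 0.761.

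E2f1, the transcription factor that activates S-phase genes, had signals of 1.5, 1.54 and 0.958 in C, 3.29 and 3.35 in KO, and 1.45, 1.18 and 1.35 in DKO. KO was separated from the rest, and the rise was 0.9 ± 0.22 (limma adjusted p = 0.0172). Ccne2, an E-type cyclin of the G1/S transition, stood at 0.743 ± 0.0848 in C, 1.65 ± 0.243 in KO and 1.2 ± 0.261 in DKO, without passing (adjusted p = 0.0942 in KO against C). Its partner Cdk2 overlapped between groups, at 11.2 ± 2.04 in C and 9.68 ± 1.6 in KO.

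None of the 3 measured inhibitors among the members passed in KO against C. All 3 lay above every C library in both KO libraries, as did 27.5% of all tested genes. Cdkn1a, the p53-induced inhibitor p21, lies on chromosome 17 at 29090976 to 29100727 (plus strand), and its signal was 29.5, 38.4 and 27.2 in C, 45.8 and 54.1 in KO, and 17.5, 20.8 and 13.3 in DKO. These 3 groups did not overlap and ran from DKO through C to KO, with a change of 0.65 ± 0.21 in KO against C (limma adjusted p = 0.0574, DESeq2 0.0313, and 0.0266 by limma without DKO 2). Cdkn2c, the INK4 inhibitor p18, stood at 7.71 ± 0.0985 in C and reached 11.8 ± 0.0387 in KO (adjusted p = 0.0649 with limma, and 0.0468 without DKO 2), and Cdkn1b, the inhibitor p27, at 17.4 ± 0.193 and 19.7 ± 0.0848 (0.619). Of the 3 calls in this class, Ccnd2 passed without each C and KO library in turn. Ccnd1 and E2f1 did not pass without KO 1 or without KO 3, with adjusted p-values of 0.0943 to 0.139, and each of the C libraries left out ended 1 of these 2 calls, with 0.0635 to 0.0806.

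**Figure D3:**
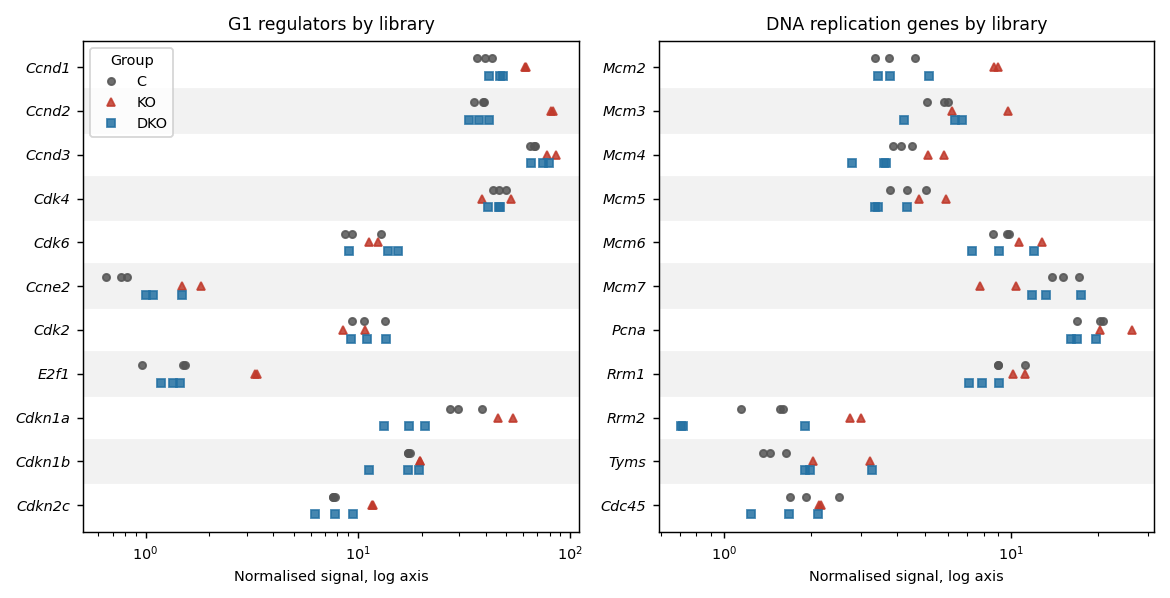
Signal of the 11 G1 and 11 S members in each library, on a log axis in units of the deposited signal, with the groups marked as grey circles (C), red triangles (KO) and blue squares (DKO). Ccnd2 and Mcm2 have both KO points above the other 6, and for Mcm7 both KO points lie below them.

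Replication genes of the S class had the smallest median change of the 3 classes in KO against C. Of 11 members 1 rose and 1 fell in KO against C (9.09% each), shares near the 6.9% and 7.01% of all tested genes. In 3 members (27.3%) both KO libraries lay above all others, where 17% of tested genes did. The median log2 change was 0.287, but 0.121 without KO 1 and 0.414 without KO 3. The minichromosome maintenance genes Mcm2 to Mcm7 encode the 6 subunits of the ring that unwinds DNA at the fork, and Mcm2 and Mcm7 changed in opposite directions.

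Mcm2 lies on chromosome 6 at 88883474 to 88898780 (minus strand), with signals of 3.34, 4.61 and 3.74 in C, 8.96 and 8.72 in KO, and 5.17, 3.44 and 3.77 in DKO. It rose by 1.02 ± 0.2 in KO against C (limma adjusted p = 0.00788), with KO well clear of the other libraries. Mcm7 lies on chromosome 5 at 138164583 to 138172422 (minus strand), with signals of 15.1, 17.2 and 13.9 in C, 10.4 and 7.78 in KO, and 11.8, 17.5 and 13.2 in DKO. Here KO was the lowest group, with a change of -0.71 ± 0.2 (limma adjusted p = 0.0353). Mcm3, Mcm4, Mcm5 and Mcm6 had log2 changes of 0.24 for Mcm5 to 0.4 for Mcm3, none past the threshold (adjusted p = 0.266 to 0.459).

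Mcm2 kept its call without each C library and lost it without KO 1 (limma adjusted p = 0.0635) and without KO 3 (0.0764). Mcm7 failed whenever a C or KO library was left out, with adjusted p-values of 0.0633 to 0.297, and its change shrank to -0.21 (0.455) when library totals replaced the authors' scaling. Genes that hold or feed the polymerases did not pass: Pcna, the clamp that holds polymerases on DNA, stood at 19.4 ± 2.12 in C and 23.3 ± 4.2 in KO, and Rrm1, the large subunit of ribonucleotide reductase, at 9.7 ± 1.27 and 10.6 ± 0.77, both with overlapping libraries. Rrm2, the regulated small subunit of that enzyme, stood at 1.43 ± 0.253 in C and 2.87 ± 0.186 in KO (adjusted p = 0.115) with no overlap. Tyms, which makes thymidylate, stood at 1.48 ± 0.144 in C, 2.62 ± 0.835 in KO and 2.38 ± 0.756 in DKO. Cdc45, a partner of the helicase, stood at 2.04 ± 0.413 and 2.16 ± 0.0372 in C and KO and did not separate them.

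Over the 3 classes, 11 of 43 measured members rose in KO against C (25.6%, where 6.9% of all tested genes rose) and 1 fell (2.33%, where 7.01% fell), and together 13.9% of tested genes passed. Every KO library lay above every C library for 33 of the 43 and below for 2, against 27.5% and 26.7% of all tested genes. Among the 41 members that reach the minimum level without the KO libraries, 10 rose and 1 fell, and both KO libraries stood above all others for 25 (61%). Of the 13327 genes that reach it without KO, 6.48% rose, 7.12% fell and 16.3% had both KO libraries above all others. The summed signal of the G1 members was 268 to 273 in C, 378 and 381 in KO and 239 to 285 in DKO, and that of the S members was 71.6 to 80.2, 80.7 and 99.2, and 63.6 to 75.6. In whole ventricle, more cycling cells and more of each RNA per cell cannot be told apart.

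**Figure D4:**
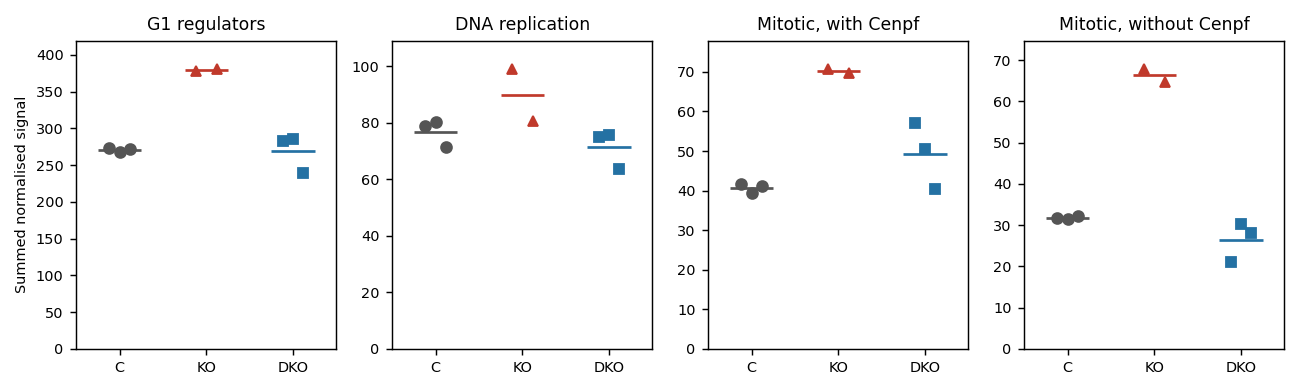
Summed signal of each class by library, in units of the deposited signal on axes from 0, with bars at group means. The G1 sums of KO (378 and 381) stand above all others, while the S sums of KO (80.7 and 99.2) start just above the highest C value.

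In DKO against C the members gave few differences. No member rose or fell past the threshold in DKO against C with limma, where 0.0738% of all tested genes rose, 0.0812% fell and 0.155% passed in all, and none with edgeR. At an unadjusted p below 0.05, 4 members differed (1 higher, 3 lower), where 8.5% of all tested genes did. The medians were 0.0119 for G1, -0.13 for S and -0.142 for mitotic members, beside 0.0115 over all genes. They were small and moved with single libraries: without DKO 1 the mitotic median was -0.0468 and that of G1 turned to -0.0318. Every DKO library lay above every C library for Ccne2, Tyms and Cenpf, and below for Cdkn1a, Mcm4, Kif11, Tpx2 and Nusap1, against 6.5% and 7.25% of all tested genes. Cdkn1a differed from C by -0.85 ± 0.19 (limma adjusted p = 0.186) and Cenpf by 1.14 ± 0.31 (0.419). DESeq2 called both, with adjusted p-values of 0.00456 and 0.0214, and without DKO 3 limma called Cenpf, at 0.0347.

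Set against KO, DKO was lower for 16 members and higher for 1, with 5.73% of all tested genes lower, 6.08% higher and 11.8% past the threshold in all. The mitotic class held 11 of the lower genes: Mki67, Top2a, Ccna2, Cdk1, Kif11, Kif20a, Tpx2, Prc1, Nusap1, Birc5 and Ube2c. Kif20a is again a description. Among the 19 members that reach the minimum without KO 10 were lower, where 5.31% of all such genes were. The median of the class was -0.789, beside 0.00788 over all tested genes, with -1.44 in edgeR, -1.47 in DESeq2 and -0.554 at a pseudocount of 2. The KO libraries are shared with the comparison above, so the values of both comparisons rest partly on the same 2 libraries. Top2a gave -1.33 ± 0.26 in DKO against KO (limma adjusted p = 0.00825) and Prc1 -1.33 ± 0.24 (0.00505).

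Some mitotic genes passed in DKO against KO and not in KO against C. Tpx2 had signals of 1.74, 1.84 and 2.07 in C, 3.17 and 3.69 in KO, and 0.804, 0.519 and 1.12 in DKO. The DKO libraries lay below C as well as below KO, with a change of -1.3 ± 0.22 against KO (limma adjusted p = 0.00421) and -0.68 ± 0.2 against C (0.452). Kif11, the kinesin that separates spindle poles, had signals of 1.32, 1.36 and 2.13 in C, 3.09 and 2.51 in KO, and 0.437, 0.613 and 0.893 in DKO. It ran in the same order, with -1.21 ± 0.24 against KO (limma adjusted p = 0.00851) and -0.65 ± 0.21 against C (0.498). Nusap1 and Birc5 were lower than in KO as well, with changes of -0.79 ± 0.22 (0.0348) and -0.89 ± 0.24 (0.033). Neither passed with the length and GC trends removed (0.0588 and 0.0541) or in a fit on KO and DKO alone (0.0869 and 0.0709), and Cdk1 did not pass in the former (0.0539).

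**Figure D5:**
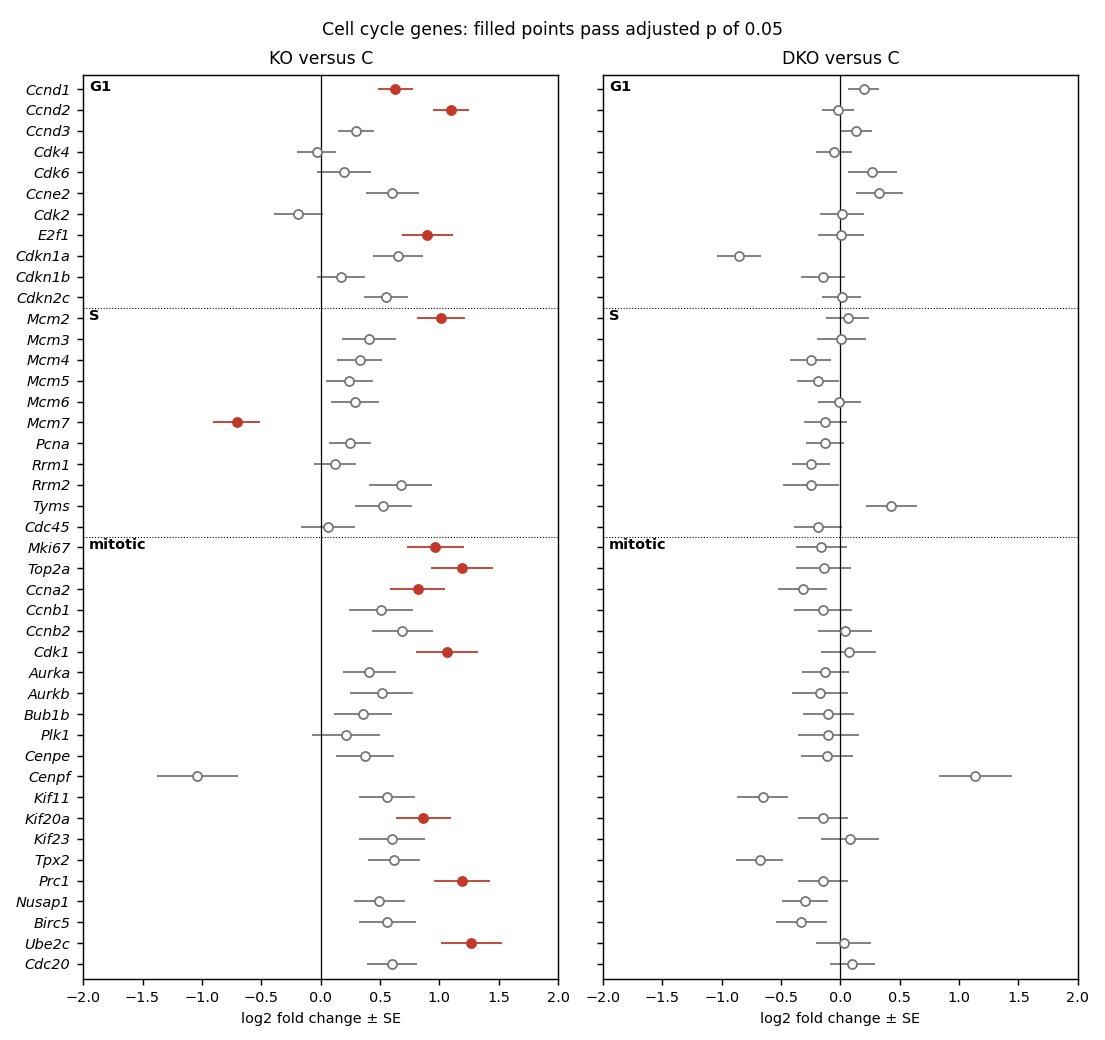
Log2 fold change of each measured member with its standard error, on the scale of log2(signal + 1), for KO against C and DKO against C. Filled points passed the threshold: 12 in the first comparison and 0 in the second.

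Cenpf was the member higher in DKO than in KO, by 2.18 ± 0.34 in log2 units (limma adjusted p = 0.00304). Lower values were found among G1 members for Cdkn1a, which changed by -1.5 ± 0.21 (0.00155), Ccnd2 by -1.12 ± 0.15 (0.00151) and E2f1 by -0.89 ± 0.22 (0.0207), and among S members Mcm2 by -0.95 ± 0.2 (0.0122) and Rrm2 by -0.92 ± 0.27 (0.0439). Rrm2 did not pass with edgeR (0.0741), and neither Rrm2 (0.0945) nor E2f1 (0.0511) did in a fit on KO and DKO alone. Ccnd2, Cdkn1a and Cenpf passed without each KO and DKO library in turn. Without KO 3 they were the only members to pass, and without KO 1 Top2a, Tpx2 and Prc1 passed with them, 3 and 6 of the 17 calls. The other calls then had adjusted p-values of 0.0687 to 0.256 without KO 3 and 0.0876 to 0.177 without KO 1. Leaving out a DKO library ended 2 or 3 calls at a time, among Cdk1, Rrm2, Nusap1 and Birc5, at 0.0536 to 0.092.

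Other genes of the cycle, from lists of related genes, were read in the same fit. Of 41 other mitotic genes tested 5 rose (12.2%) and 1 fell (2.44%) in KO against C, beside 6.9% and 7.01% of all tested genes, but 15 of the 41 reached the minimum level only through KO. Among the other 26, 2 rose (7.69%, where 6.48% of such genes did) and 1 fell (3.85%, where 7.12% did). The median log2 change of these 26 was 0.382, beside -0.000295 over all genes that reach the minimum without KO. Pttg1, the securin that holds back separase until anaphase, lies on chromosome 11 at 43420250 to 43426251 (minus strand), and its signal was 3.34, 4.43 and 2.63 in C, 41.6 and 34.9 in KO, and 2.46, 3.07 and 3.14 in DKO. KO exceeded every other library by a wide margin, with a log2 change of 3.15 ± 0.21 (limma adjusted p = 8.57e-06) that passed under all 18 alternatives. No measured member of the 3 classes changed as much in KO against C. Racgap1, a regulator of cytokinesis, was the other of the 2, with 0.66 ± 0.2 (0.0493), but it did not pass under edgeR (0.0593), DESeq2 (0.0554) or without any 1 of the C and KO libraries (0.088 to 0.229). Ckap2l, Ckap2 and Cenpm, proteins of spindle and centromere, passed as well but entered the test only through KO, so their values are a description. They stood at 0.659 ± 0.343, 0.845 ± 0.281 and 0.255 ± 0.0962 in C and at 2.11 ± 0.554, 2.38 ± 0.5 and 1.21 ± 0.0736 in KO. Cenpa, the centromeric histone, fell by 0.63 (adjusted p = 0.0254), a call lost whenever a C or KO library was left out (0.0594 to 0.161) and when library totals were used (-0.11, 0.762).

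Of 38 other replication genes tested, Uhrf1, which helps copy DNA methylation, rose by 0.79 (limma adjusted p = 0.0391). Gmnn, the inhibitor of origin licensing, fell by 0.89 (0.0337) and Pold1, the catalytic subunit of polymerase delta, fell by 0.64 (0.0311). The shares of the list, 2.63% higher and 5.26% lower, lay under those of all tested genes (6.9% and 7.01%), and its median was -0.0332. All 3 calls were lost whenever a C or KO library was left out, with adjusted p-values of 0.0661 to 0.285, and with library totals Gmnn and Pold1 gave -0.38 (0.34) and -0.13 (0.645). Of 21 other G1 genes 9.52% rose and 4.76% fell, not far from those shares. E2f3, an activating E2F, rose by 1.16 ± 0.23 (0.00742), and its partner Tfdp1 by 0.58 ± 0.15 (0.0223). Without KO 1 and without KO 3 the adjusted p-values were 0.054 and 0.0786 for E2f3 and 0.135 and 0.123 for Tfdp1, which also failed without each C library (0.0687 to 0.0803).

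Cdkn1c, the Cip/Kip inhibitor p57, fell in the same list. Its signal was 54.7, 37.3 and 39.4 in C, 14 and 11.9 in KO, and 54.4, 63.5 and 37.5 in DKO. KO lay far below all other libraries, while DKO overlapped C, and the change in KO against C was -1.67 ± 0.23 (limma adjusted p = 0.00125), past the threshold under all 18 alternatives. Of 15 targets of p53, a group to which Cdkn1a itself belongs, 2 rose (13.3%) and 1 fell (6.67%). Of all tested genes 6.9% rose and 7.01% fell. The stress cytokine Gdf15 rose by 1.54 ± 0.26 (0.00306) and Phlda3, an inhibitor of Akt, by 1.03 ± 0.2 (0.00692, but 0.0635 without KO 1 and 0.0551 without KO 3). The death receptor Fas fell by 0.96 ± 0.18 (0.0059, but 0.0658 without KO 1 and, with library totals, a change of -0.48 at 0.0967).

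In DKO against C none of these 4 lists held a gene that passed with limma, and the smallest p of each list, 1 gene per list, belonged to Tfdp2, Fen1, Spc24 and Gdf15, of which Gdf15 came nearest (log2 change -1.28 ± 0.23, limma adjusted p = 0.0618). In DKO against KO, 14.3% of the other G1, 5.26% of the other replication, 9.76% of the other mitotic and 13.3% of the p53 genes were lower. Of all tested genes 5.73% were. The shares higher were 9.52%, 2.63%, 0% and 0%, against 6.08% of all tested genes. Among genes that reach the minimum without KO, 10%, 2.7%, 7.69% and 13.3% were lower, where 5.31% of all such genes were. Pttg1 changed by -3.34 ± 0.21 in this comparison (limma adjusted p = 6.33e-06), and Gdf15 by -2.82 ± 0.26 (0.000143). Cdkn1c was higher by 1.89 ± 0.23 (0.000809). Racgap1, Uhrf1, E2f3, Tfdp1 and Phlda3 were lower too, and Pold1 was higher, but without KO 1 or without KO 3 none of these 6 passed (0.061 to 0.197). Fbxw7, a ubiquitin ligase subunit that marks cyclin E, was higher by 0.59 (0.0464), a call lost without KO 1, KO 3, DKO 2 or DKO 3 (0.0559 to 0.332), and its direction flipped with library totals (-0.05, 0.861). Clspn, which signals stalled forks, and E2f8, a repressing E2F, lay below a signal of 1 in every C and DKO library and entered the test through KO, with means of 1.38 ± 0.358 and 1.37 ± 0.19 in KO and of 0.195 ± 0.16 and 0.222 ± 0.0886 in DKO.

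Markers of other cell types moved between the same groups. In KO against C, 6.9% of all tested genes rose and 7.01% fell. Every KO library lay above every C library for 27.5% of all tested genes and below for 26.7%. In DKO against C, 0.0812% of all tested genes fell. Of 6 markers of activated fibroblasts 5 rose in KO against C. The summed signal of the 6 was 166 to 199 in C, 452 and 491 in KO and 197 to 308 in DKO. Postn, a marker of that state, stood at 22.5 ± 7.29, 183 ± 38.5 and 28.5 ± 8.06 in C, KO and DKO. The 6 did not move alike. In the same order Acta2 stood at 116 ± 25.1, 132 ± 22 and 149 ± 27.9, and Comp at 3.73 ± 1.42, 23.4 ± 9.87 and 13.7 ± 10.1. All 10 macrophage markers lay higher in every KO library than in every C library and 2 rose, with sums of 321 to 353 in C, 453 and 461 in KO and 364 to 464 in DKO. Of 4 epicardial markers measured 2 rose, with sums of 3.43 to 8.44 in C, 13.2 and 19.8 in KO and 5.53 to 8.97 in DKO. Krt19 stood at 0.192 ± 0.184 in C and 7.47 ± 2.74 in KO, and Wt1 at 3.42 ± 1.19 and 7.32 ± 0.422. Upk3b had a lower mean in KO (0.68 ± 0.878 against 0.979 ± 1.06). Msln stood at 0.576 ± 0.513 in C and 1.02 ± 1.42 in KO. Of 9 fibroblast markers 3 rose and 0 fell, with sums of 1120 to 1900 in C, 1700 and 2220 in KO and 1320 to 3420 in DKO. They did not move together: 6 had positive log2 changes, and every KO library lay below every C library for 2. Lower means in KO than in C were those of Pdgfra (16.9 ± 0.965 against 21.7 ± 2.43), Dpt (46.4 ± 8.47 against 64 ± 5.71) and Gsn (652 ± 129 against 846 ± 269). No endothelial marker of 8 rose or fell, nor did any of 5 lymphocyte, 3 neutrophil or 5 erythroid markers measured, and 1 of 7 mural markers rose. The summed cardiomyocyte markers were 60600 to 63700 in C, 36400 and 41000 in KO and 36200 to 59600 in DKO, and 1 of 8 fell. Every KO library lay below every C library for 6 of the 8 and above for 1, Actc1 (6500 ± 516 in C, 8380 ± 726 in KO). All 8 genes of the skeletal muscle list fell in KO against C and 6 of them in DKO against C. Myh4, a fast myosin, had 0 reads in both KO libraries, against a signal of 70.5 ± 55.2 in C and 2.83 ± 2.17 in DKO. Ckm, also on this list, stood at 3960 ± 269 in C, 1600 ± 220 in KO and 3140 ± 884 in DKO, so it does not mark skeletal muscle alone here. The part of these cell types in the changes of the cell cycle genes was not tested.

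Several members share exon bases with a gene on the opposite strand, and the strand setting of the counting is not given in the sources used here, so their reads cannot be fully told apart. For Ube2c the neighbour is Tnnc2, a skeletal muscle troponin that covers 22.8% of its exon bases and moved against it, at 29.9 ± 19.8 in C, 0.0752 ± 0.0328 in KO and 1.09 ± 0.346 in DKO. Kif20a shares 29.3% of its exon bases with Cdc23, Ccnd1 shares 23.4% with LTO1, Ccna2 shares 12.5% with Exosc9 and Prc1 shares 11.1% with Rccd1, and none of these 4 neighbours passed in KO against C (adjusted p = 0.28 to 0.877). Mcm7, which fell, shares 7.3% with Ap4m1 and 1.4% with Cops6, whose log2 changes were -0.52 (limma adjusted p = 0.152) and -0.62 (0.0631), in the same direction. Cdk4, with a log2 change of -0.03 (0.916), shares 19.7% with Tspan31, which rose by 0.64 (0.0313).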

How the data were processed

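The deposited signal, as the values themselves show, is reads plus 0.5, divided by an effective library size and scaled up. Whole reads came back for 100% of values (tolerance 0.001 reads), and the authors' scaling factors equal edgeR's TMM factors. Per the submitters' processing notes, RSEM 1.3.1, cutadapt and limma were used with GRCm38. Neither the annotation nor whether strand was used is given in the sources used here. Which low genes were dropped is not recorded.

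The test was limma 3.58.1 (R 4.3.3), two-sided, on log2(signal + 1) of the 13544 genes that reached a signal of 1 in 2 or more libraries. The model held 3 group means over 8 libraries, with a variance trend on intensity and 5 residual degrees of freedom, with Benjamini-Hochberg adjustment over all tested genes and a threshold of 0.05. edgeR 4.0.16 and DESeq2 1.42.0 on the recovered reads, other scalings, filters and pseudocounts, the replicate number as a block and leaving out single libraries were alternatives. The script was tested on simulated data. Replicates of a group differed beyond counting noise (chi-square per gene 13.6 to 253).

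The members and lists were chosen with earlier results of these data known. Named genes are all members and, from each of the 4 related lists, up to 4 per direction with the largest change among those past the threshold, or the gene with the smallest p. Cenpf was singled out after its values were seen, and Racgap1 follows the rule only in DKO versus KO. Coordinates and lengths are from GENCODE M21 (GRCm38), with 13671 of 13677 identifiers matched, and promoters are from RefSeq.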

Additional observations from a re-analysis of the deposited data

How the results depend on the processing

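With 2 KO libraries, single libraries decided most calls. Of the 43 members, 12 passed in KO versus C, and leaving out 1 library of these groups gave 1 to 7. In DKO versus C 0 passed, with a range of 0 to 1, and DESeq2 gave 2. In DKO versus KO 17 passed, with a range of 3 to 18. A mean signal of at least 5, which leaves 17 members to test, gave 5 calls in KO versus C and 5 in DKO versus KO. Mki67 (means of 4.55 in C and 4.11 in DKO) and Mcm2 (3.9 and 4.13) were among the calls of both comparisons. These genes reach that mean only through KO, so their calls at this filter support nothing by themselves. A fit on the 2 groups compared gave 19 in KO versus C and 13 in DKO versus KO, where E2f1, Rrm2, Nusap1 and Birc5 did not pass. With library totals in place of the authors' scaling, the median log2 change of all genes moved to 0.484 in KO versus C and -0.573 in DKO versus KO, and 36 members (36 higher, 0 lower) and 39 (1 higher, 38 lower) passed. All genes then split 4634 higher to 197 lower in KO versus C, against 934 to 949, and relative to the shifted median the members' median was 0.434. Called members kept their direction in all 486 refits, and 401 stayed past the threshold. Of the 85 that did not, 69 left out a library. Among genes of the related lists Fbxw7 turned from higher to lower in DKO versus KO with library totals, at -0.053.

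The replicate block gave 11, 0 and 14 members in the 3 comparisons, in the order above. It ended the calls of Mcm7 (0.0668) and Kif20a (0.0626) in KO versus C and of Rrm2 (0.0795), Nusap1 (0.0841) and Birc5 (0.0788) in DKO versus KO. The labels do not say that the numbers pair samples, so they were not taken as pairs. Deviations from the group means correlated at -0.274 to 0.218 between libraries of the same number, and C 2 correlated best with DKO 1 (0.212). With 2 KO libraries such deviations mirror each other: C 1 gave 0.218 with KO 1 and -0.218 with KO 3. These correlations therefore cannot decide whether the numbers are pairs. Leaving out DKO 2 in KO versus C, and the refits of related genes, were chosen after seeing the data. The former gave 16 members. Most mitotic members lie near a signal of 1 in C and DKO, where low read numbers limit what can be shown.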
